A study of Mus musculus with 14 samples.

Results

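A set of 126 gene clusters was described whose mean RNA level was lower in C2C12 cells depleted of the Quaking isoform Qk5 and stayed near the control level in cells depleted of the isoforms Qk6 and Qk7. The members were chosen among the 1036 gene clusters of the authors' deposited expression table by 3 limits on the authors' means: a control mean of at least 20 normalized counts, a log2 ratio of Qk5 depletion over control of -0.6 or less, and a log2 ratio of Qk6/7 depletion over control between -0.4 and 0.4. Another 7 genes that pass these limits, Qk itself with Laptm4b, Ostm1, Ei24, Slc7a11, Cox6a1 and Pdia4, were left out by name. The 126 clusters carry 125 gene symbols, because Apcdd1 is listed as 2 clusters.

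C2C12 is a mouse myoblast line that can be driven to form muscle fibres in culture. The cells were transfected with small interfering RNA (siRNA) against Qk5, siRNA against Qk6 and Qk7, or control siRNA, with 3 replicates in each of these groups, and RNA depleted of ribosomal RNA was sequenced. All groups share the cell line and the transfection reagent (Lipofectamine 2000), so the control cells were transfected too. A further group, depleted of all Qk isoforms in 1 replicate, was not analysed here. Whether separate cultures were used for the replicates is not in the labels. The p-values the authors give therefore reflect differences among these libraries, and that variation may be technical.

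Quaking is an RNA-binding protein of the STAR family that recognises the RNA word ACUAA followed by a pyrimidine and acts on splicing, stability and translation of its target RNAs. Alternative splicing of the 3′ end of its transcript gives proteins that share the RNA-binding part and differ at the C-terminus. Qk5 carries a nuclear localisation signal and is mainly nuclear, whereas Qk6 and Qk7 lack it and are found largely in the cytoplasm. In muscle cells Quaking is known as a regulator of alternative exons. An siRNA acts through the Argonaute proteins and can, beside its intended target, lower other RNAs whose 3′ UTR pairs with the seed near its 5′ end.

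The authors' deposited table gives 1 mean per condition, a read count divided by size factors and averaged over replicates, so no value per sample, SD or interval can be given here, the depth per sample is unknown, and whether the groups overlap cannot be said. Qk as a whole gene averaged 3267 normalized counts in Qk5 depletion, 5271 in Qk6/7 depletion and 5875 in control cells (the authors' deposited table), values that do not separate the isoforms. The gene fell in Qk5 depletion (0.556-fold, DESeq adjusted p = 0.00246) and was not called in Qk6/7 depletion (0.897-fold, adjusted p = 1) in the authors' deposited table. Of the 6 myoblast markers looked up, only Myf5 is among the genes of the table, which lists genes with an adjusted p under 0.1 in at least 1 depletion, so the cell label could be checked only in part. Myf5 averaged 970 normalized counts in Qk5 depletion, 1521 in Qk6/7 depletion and 810 in control cells (the authors' deposited table). By the authors' DESeq test it was not called in Qk5 depletion (1.20-fold, adjusted p = 0.810) and rose in Qk6/7 depletion (1.88-fold, adjusted p = 0.00586). All 7 markers of differentiated muscle looked up (Myog, Acta1, Ttn, Tnni1, Mb, Ckm and Myh3) are listed. By the authors' DESeq test they rose in Qk5 depletion, and none was called in Qk6/7 depletion. Their summed mean was 5577 normalized counts in Qk5 depletion, 3097 in Qk6/7 depletion and 2192 in control cells (the authors' deposited table). Most of each sum came from Ttn, with 3209, 2000 and 1367 in the same order of groups. Of other cell types, Cd68 of the 3 macrophage markers and Runx2 of the 3 osteoblast markers are listed, and none of the 3 fibroblast or 3 adipocyte markers. Cd68 averaged 77.0 normalized counts in Qk5 depletion, 19.3 in Qk6/7 depletion and 56.6 in control cells, and Runx2 averaged 819, 1096 and 595 in the same order of groups (the authors' deposited table). In Qk5 depletion neither was called by the authors' DESeq test (adjusted p = 0.509 and 0.702). By the authors' DESeq test Cd68 fell in Qk6/7 depletion to 0.341-fold of the control mean (adjusted p = 0.00501). Runx2 rose in Qk6/7 depletion to 1.84-fold of the control mean (the authors' DESeq adjusted p = 0.0111). The part of these marker levels in the lower level of the members was not tested. In RNA from whole cultures, fewer cells of a type and less RNA per cell cannot be told apart.

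All members lay in a narrow band. The log2 ratio in Qk5 depletion had a median of -0.80 and ran from -1.69 to -0.60, and the ratio in Qk6/7 depletion had a median of -0.05 and ran from -0.38 to 0.39, beside medians of 0.45 and -0.11 over all genes of the table. These values chose the members and are given as a description. In 26 of the members the Qk5 depletion mean was at a log2 ratio of -1 or below. In Qk6/7 depletion 75 members had a mean below and 51 a mean above that of control cells, and 84 lay within 0.2 log2 of it.

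**Figure D1:**
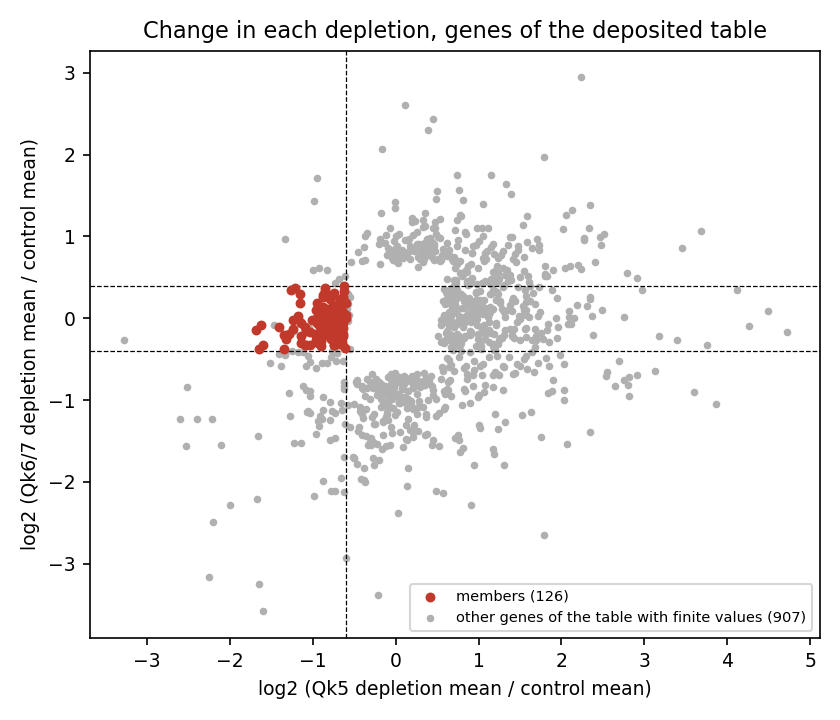
Each point is a gene of the authors' deposited table, with the log2 ratio of means in Qk5 depletion over control on the x axis and in Qk6/7 depletion over control on the y axis; dashed lines mark the limits of -0.6, -0.4 and 0.4. The 126 members (red) fill the band left of -0.6 and between -0.4 and 0.4, which the limits set, and the empty centre comes from the table's own cut in adjusted p.

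By the authors' DESeq test, 85 of the 126 members fell in Qk5 depletion at an adjusted p under 0.05. Lower calls in Qk5 depletion made up 0.801% of the 16604 genes the authors tested and 12.8% of the genes of the table, and since this contrast chose the members nothing is read from their count. The other 41 members had adjusted p-values up to 0.0989 and are in the table because its cut lies at 0.1. No member was called in Qk6/7 depletion by the authors' DESeq test and none had an unadjusted p under 0.05, where the lowest was 0.0643, beside calls in either direction for 1.9% and lower calls for 1.29% of the 16564 genes tested, and calls in either direction for 30.4% of the genes of the table. The limit on Qk6/7 depletion favours such values, and both comparisons use the same control samples. A p above the threshold does not show that the level was the same as in control cells. The 85 called members made up 63.9% of the 133 genes that the authors' test called lower in Qk5 depletion. Of the other 48, 36 were lower in Qk6/7 depletion by a log2 ratio of -0.4 or less, 5 were higher by 0.4 or more, 6 were left out by name and 1 had a control mean under 20.

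The limits cut through a continuum. Just inside the limit on the fall stood Mapkapk2 (-0.60), Impa2 (-0.60) and Mrps2 (-0.61), and just outside it the Notch ligand gene Jag2 (-0.59), Pttg1ip (-0.59) and the replication helicase gene Mcm2 (-0.59), all as log2 ratios of Qk5 depletion over control. At the limit on Qk6/7 depletion, 9430015G10Rik (0.39), Dera (-0.38) and Psrc1 (0.37) were inside, and Nceh1 (-0.40), Plekhh1 (-0.40) and 4632415K11Rik (-0.41) outside. The lowest control means among members were those of Trp53i11 (30.7 normalized counts), Rnu1b2 (35.1) and Llgl2 (39.5) in the authors' deposited table. The chemokine gene Cxcl10, with 17.3, stood just outside the limit on the control mean.

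Levels spanned a wide range. The median member averaged 419 normalized counts in Qk5 depletion and 680 in control cells, and control means ran up to 10462, that of Calu, in the authors' deposited table. Of the 126 members, 53 had a control mean of at least 1000 and 10 a mean under 100. In the 42 members with the lowest control means (30.7 to 415) the median log2 ratio in Qk5 depletion was -0.90, against -0.76 in the middle 42 and -0.76 in the highest 42 (1191 to 10462). The table's cut in adjusted p requires a larger difference of genes with few counts, so nothing is read from this order.

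The leading members, those with the largest falls among members with a control mean of at least 100, were 15 genes of unlike function. Mctp2, a membrane protein with C2 domains, averaged 31.3 normalized counts in Qk5 depletion, 91.8 in Qk6/7 depletion and 101 in control cells (the authors' deposited table), the lowest ratio of the set (0.310-fold, the authors' DESeq adjusted p = 0.000119). Ccdc3, a secreted protein of fat and vascular cells, stood at 38.5 in Qk5 depletion, 93.3 in Qk6/7 depletion and 121 in control cells (the authors' deposited table). Ada, the adenosine deaminase that turns adenosine into inosine, stood at 78.4, 174.5 and 200.3 in the same order of groups in the authors' deposited table. Each of these genes was low in Qk5 depletion, while its Qk6/7 depletion mean lay closer to the control mean.

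Among the well-expressed leaders, Dera, the aldolase that splits deoxyribose phosphate, averaged 409 normalized counts in Qk5 depletion, 798 in Qk6/7 depletion and 1039 in control cells (the authors' deposited table; adjusted p = 3.38e-06 in Qk5 and 0.729 in Qk6/7 depletion by the authors' DESeq test). Tbcb, a cofactor that folds tubulin for the assembly of microtubules, averaged 515 in Qk5 depletion, 1107 in Qk6/7 depletion and 1261 in control cells (the authors' deposited table), and had the smallest adjusted p of the set (1.29e-06 by the authors' DESeq test). Necap2, an endocytic protein that binds clathrin adaptors, averaged 467 in Qk5 depletion, 1081 in Qk6/7 depletion and 1099.6 in control cells (the authors' deposited table). Of these, Necap2 had a Qk6/7 depletion mean almost at the control mean (log2 ratio -0.02), and Dera lay near the limit of the set (-0.38). Psrc1, a microtubule protein of the mitotic spindle, had a mean above that of control cells in Qk6/7 depletion without a call, with 150 normalized counts in Qk5 depletion, 449 in Qk6/7 depletion and 347 in control cells (the authors' deposited table). Ndufa4, a small subunit of the respiratory chain, averaged 1746 in Qk5 depletion, 2963 in Qk6/7 depletion and 3722 in control cells (the authors' deposited table).

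Of the other leaders, 2 had means above the control mean in Qk6/7 depletion. Amigo2, an adhesion protein of neurons and other cells, averaged 62.6 normalized counts in Qk5 depletion, 191.6 in Qk6/7 depletion and 150.7 in control cells (the authors' deposited table). Nipal1, a magnesium transporter, averaged 136 in Qk5 depletion, 343 in Qk6/7 depletion and 301 in control cells (the authors' deposited table). Both were well below the control mean in Qk5 depletion, and neither was called in Qk6/7 depletion. Slc9a3r1, a scaffold under the plasma membrane, averaged 279.8 in Qk5 depletion, 590.4 in Qk6/7 depletion and 617 in control cells (the authors' deposited table). Arhgap44 averaged 182 in Qk5 depletion, 362 in Qk6/7 depletion and 389 in control cells (the authors' deposited table). Epha4, a receptor for ephrins, averaged 109 in Qk5 depletion, 207 in Qk6/7 depletion and 231 in control cells (the authors' deposited table). These 3 genes lay slightly below the control mean in Qk6/7 depletion. Fbxo33, a subunit of a ubiquitin ligase, averaged 309.7 in Qk5 depletion, 505 in Qk6/7 depletion and 636 in control cells (the authors' deposited table). The cluster 1110012D08Rik averaged 263 in Qk5 depletion, 501 in Qk6/7 depletion and 583 in control cells (the authors' deposited table).

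**Figure D2:**
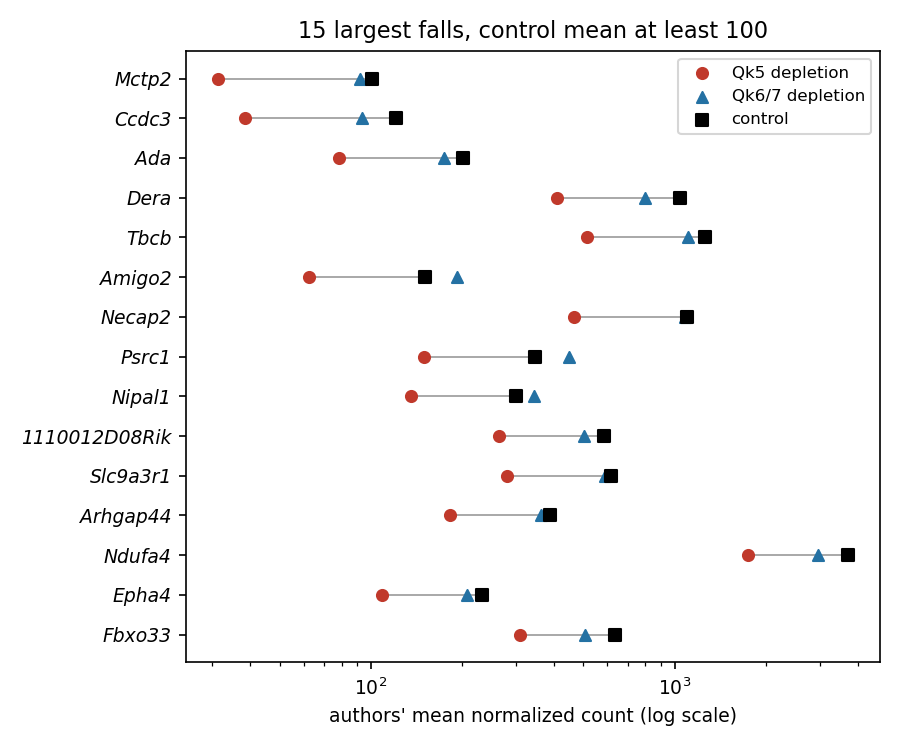
The authors' mean normalized count (x axis, log scale) of the 15 members with the largest falls among those with a control mean of at least 100, in Qk5 depletion (red circles), Qk6/7 depletion (blue triangles) and control cells (black squares), 1 row per gene and no error because the table holds means only. The red circle is the leftmost of each row, and the triangle lies right of the square for Amigo2, Psrc1 and Nipal1.

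Sorted by role, 99 of the 126 members were placed in 12 groups, chosen with the values known and given without a test. All members had lower means in Qk5 depletion by their choice. In the role groups, fell means called lower by the authors' DESeq test at an adjusted p under 0.05. Such calls covered 85 of the 126 members and 12.8% of the genes of the table. Since this contrast chose the members, nothing is read from the count in each group. Enzymes of nucleotide and sugar phosphate metabolism numbered 10, of which 7 fell by the authors' DESeq test. Both enzymes that remove adenosine were among them: Ada (-1.35 log2 in Qk5 depletion, -0.20 in Qk6/7 depletion) and the adenosine kinase gene Adk (-1.01 and -0.02). Adk averaged 652 normalized counts in Qk5 depletion, 1293 in Qk6/7 depletion and 1310.3 in control cells (the authors' deposited table). Others among the calls were Dera (-1.34 log2 in Qk5 depletion), Nudt5 (-0.82), which hydrolyses nucleotide derivatives, and Enoph1 (-0.76), of methionine salvage. Hyi (-1.15), named for hydroxypyruvate isomerase and listed as a transcribed pseudogene in RefSeq, was called as well. The ribose phosphate branch of nucleotide synthesis, Prps2 (-0.63) and Prpsap2 (-0.68), and the uridine phosphorylase gene Upp1 (-0.75) missed the threshold of the authors' DESeq test with adjusted p-values of 0.0849, 0.0899 and 0.0801. Prps2 averaged 645 normalized counts in Qk5 depletion, 856 in Qk6/7 depletion and 999 in control cells (the authors' deposited table).

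Of 5 mitochondrial members 4 fell. Ndufa4 (-1.09 log2 in Qk5 depletion) and Sdhd, the membrane anchor of succinate dehydrogenase (-0.78), belong to the respiratory chain, Pitrm1 (-0.80) degrades presequences after import, and Echdc2 (-0.90) is an enoyl-CoA hydratase-like protein. Sdhd averaged 1558 normalized counts in Qk5 depletion, 2602 in Qk6/7 depletion and 2682 in control cells (the authors' deposited table). Mrps2, of the small mitochondrial ribosomal subunit, had a log2 ratio of -0.61 and was not called. Lipid enzymes numbered 10, of which 5 fell: Gpd1l (-0.94), Daglb (-0.92), Abhd1 (-0.92), the phosphoinositide phosphatase gene Mtmr14 (-0.78) and the lipid-binding Ttpal (-0.64). Both diacylglycerol lipases that make the endocannabinoid 2-AG are members, but Dagla (-0.64, adjusted p = 0.0989 by the authors' DESeq test) was not called. Gnpat, of ether lipid synthesis, Acaa1a, a peroxisomal thiolase, the endothelial lipase gene Lipg and the inositol monophosphatase gene Impa2 stood between -0.74 and -0.60 without a call.

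The cytoskeletal group held 10 members, of which 9 fell, with log2 ratios in Qk5 depletion of -1.29 for Tbcb, -1.21 for Psrc1, -1.09 for Arhgap44, -0.95 for Gas2l1, which links actin filaments to microtubules, and -0.80 for Fscn1, which bundles actin. Fscn1 was among the most abundant members, with 3769 normalized counts in Qk5 depletion, 7716 in Qk6/7 depletion and 6557 in control cells (the authors' deposited table). Arhgef5 and Arhgef11 stood at -0.76 and -0.67, Uaca at -0.76 and Abi2, of the complex that activates actin branching, at -0.63. The polarity gene Llgl2 averaged 15.8 normalized counts in Qk5 depletion, 33.1 in Qk6/7 depletion and 39.5 in control cells in the authors' deposited data, a log2 ratio of -1.32, and was not called.

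Signal relays numbered 12, of which 6 fell. Nras, a Ras GTPase, averaged 3161 normalized counts in Qk5 depletion, 5469 in Qk6/7 depletion and 6226 in control cells (the authors' deposited table; 0.508-fold in Qk5 depletion, DESeq adjusted p = 0.000658). Ptpn11, the phosphatase SHP2 that relays receptor signals to Ras, averaged 3554 in Qk5 depletion, 6874 in Qk6/7 depletion and 5476 in control cells (the authors' deposited table; 0.649-fold, adjusted p = 0.0216). The kinase gene Sgk1 (-0.84 log2 in Qk5 depletion), the protein kinase A subunit gene Prkar2b (-0.71), the mTORC1 inhibitor gene Akt1s1 (-0.69) and the phosphatase scaffold gene Strn4 (-0.68) were the other 4 calls. Dusp2, Tirap, Rgs10, Chuk, Rem1 and Mapkapk2 stood between -0.90 and -0.60 without a call.

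Cell surface and secreted proteins formed the largest group, with 19 clusters of 18 genes, of which 14 clusters fell. Receptors and adhesion genes among the calls were the ephrin receptor gene Epha4 (-1.09 log2 in Qk5 depletion), Notch1 (-0.74), the phosphatase gene Ptprf (-0.85), the tetraspanin gene Cd151 (-0.79), Podxl (-0.92), Cd109 (-0.85), which binds TGF-beta, and Amigo2 (-1.27). Ligands among them were Wnt4 (-1.08), the EGF receptor ligand gene Areg (-0.86) and Sema7a (-0.77), and Apcdd1, a membrane inhibitor of Wnt signalling, fell in both of its clusters (-0.94 and -0.89). Areg averaged 349 normalized counts in Qk5 depletion, 815 in Qk6/7 depletion and 632 in control cells (the authors' deposited table). Enzymes that act on Notch were represented by Poglut1, which adds glucose to its EGF repeats and fell (-0.98), and by the sheddase gene Adam17 (-0.67), which was not called. H60b, a ligand of the natural killer receptor NKG2D, fell to 24.8 normalized counts in Qk5 depletion, beside 71.9 in Qk6/7 depletion and 76.4 in control cells (the authors' deposited table), and a second NKG2D ligand gene, Raet1d, stood at -0.70 without a call. Both belong to families of closely similar genes among which reads may be split, so their values are uncertain. Efna2, Bmper and Tspan6, at -1.15, -0.75 and -0.67, were not called.

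Genes of RNA and DNA handling made up 15 protein-coding members. Of 6 RNA-binding or RNA polymerase genes 5 fell: Fmr1 (-0.95 log2 in Qk5 depletion), whose loss causes fragile X syndrome in humans, Polr3g (-0.92), Habp4 (-0.88), the dicer partner gene Tarbp2 (-0.78) and the export helicase gene Ddx19a (-0.67), while the splicing factor gene Hnrnpm (-0.71) was not called. Fmr1 averaged 1142 normalized counts in Qk5 depletion, 2513 in Qk6/7 depletion and 2203 in control cells (the authors' deposited table). All 4 genes of DNA repair and cell cycle control fell: Pkmyt1 (-0.89), which inhibits Cdk1, Smug1 (-0.79), a uracil glycosylase gene, the checkpoint kinase gene Chek2 (-0.78) and the ligase gene Lig3 (-0.63). Of 5 chromatin and transcription genes Zfp239 (-0.90), Hist3h2ba (-0.69) and Baz1a (-0.67) fell, and Hmga2 (-0.64) and the Hippo pathway coactivator gene Wwtr1 (-0.63) were not called. Wwtr1 averaged 3134 normalized counts in Qk5 depletion, 4668 in Qk6/7 depletion and 4862 in control cells (the authors' deposited table). The noncoding RNAs Neat1 (-0.61) and Rnu1b2 (-1.41) were not called either. Rnu1b2 is a copy of the U1 small nuclear RNA, whose reads may be split between near-identical copies, so its value is uncertain.

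Transport and the secretory pathway were the remaining groups. Of 7 transporter and pump genes 4 fell: Nipal1 (-1.15 log2 in Qk5 depletion), the scaffold gene Slc9a3r1 (-1.14), the V-ATPase subunit gene Atp6v0e (-1.04) and the urea transporter gene Slc14a1 (-0.80). Atp1b3, Slc48a1, a heme transporter gene, and Gpr172b stood between -0.67 and -0.65 without a call. Of 9 genes of vesicles, caveolae and secretion 5 fell: Tbc1d2 (-1.24), Necap2 (-1.24), Cav2 (-0.93), Calu (-0.78) and the lysyl hydroxylase gene Plod1 (-0.70). Calu, a calcium-binding protein of the secretory pathway and the most abundant member, averaged 6081 normalized counts in Qk5 depletion, 10795 in Qk6/7 depletion and 10462 in control cells (the authors' deposited table). Mgat5, Tbc1d16, Gcnt2 and Trak2 stood between -0.82 and -0.64 without a call. The 27 members in no group ran from -1.69 to -0.62, and 19 of them fell, among them Mctp2, Ccdc3, Prr9 (-1.61) and Fbxo33 (-1.04).

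**Figure D3:**
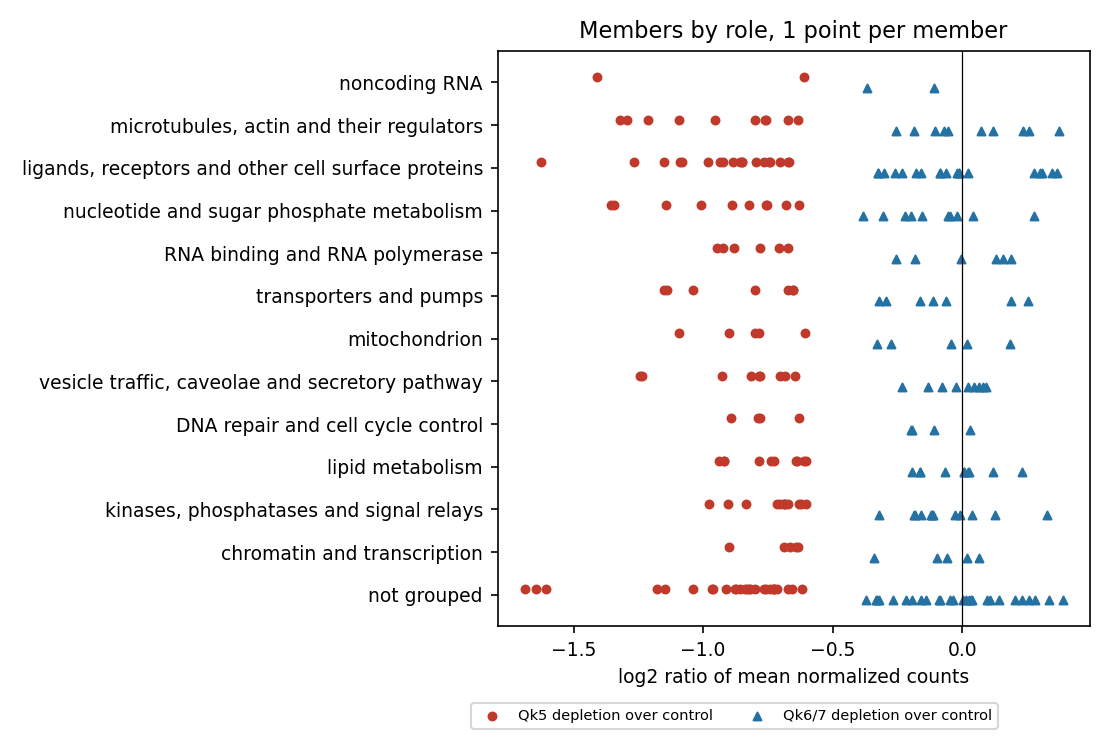
The log2 ratio of mean normalized counts (x axis) of each member in Qk5 depletion over control (red circles) and Qk6/7 depletion over control (blue triangles), 1 row per role group. In every row the red points lie at or left of -0.60 and the blue points between -0.38 and 0.39 because the choice of members set those limits; within them the groups overlap.

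Gene lists of whole pathways were looked up beside the members. Of 15 lists, 5 held a member and 10 held none. Some of the 10 hold genes that pass the limits but were left out by name. These are Ei24 (p53 targets), Laptm4b and Ostm1 (lysosome), Slc7a11 (oxidative stress), Pdia4 (ER chaperones) and Qk (RNA-binding and splicing regulators). Of 38 respiratory chain genes 3 are in the table, Ndufa4, Sdhd and Cox6a1. All 3 were called lower in Qk5 depletion and none in Qk6/7 depletion by the authors' DESeq test, beside lower calls for 12.8% and calls in Qk6/7 depletion for 30.4% of the genes of the table. Since all 3 meet the limits that chose the members, these calls and their medians of -1.09 and -0.05 log2 are a description. The other 35 are not in the table. Of 34 genes of tubulin folding and microtubule binding 3 are in the table: Tbcb and Psrc1 fell and 1 other, Tubb3, rose in Qk5 depletion. Of 29 genes listed under pentose and sugar phosphate metabolism 4 are in the table: Dera, Prps2, Hk2 and the pyruvate dehydrogenase kinase gene Pdk1. By the authors' DESeq test Dera was lower and Pdk1 higher in Qk5 depletion, and 1 of the 4 was higher in Qk6/7 depletion. Of 34 genes of clathrin adaptors and endocytosis 2 are in the table, Necap2 lower and Eps15 higher. Each of these lists had at most 2 genes among the members.

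Exon use was a measure that the choice of members did not use. The authors' deposited splicing table lists bins, stretches of exon used or skipped together, for 228 genes, each with at least 1 bin at a DEXSeq adjusted p under 0.1 over the 3 conditions, and 192 of them have a bin under 0.05. Of the 125 member symbols 2, Gas2l1 and Fmr1, had a bin with a DEXSeq adjusted p under 0.05, or 1.6%, beside 2.77% of the 904 other gene symbols of the expression table.

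In Gas2l1 the change lay at the 3′ end of the transcript. Of 10 bins, the last one in the direction of transcription (chr11:4954134-4956692, mm9, minus strand, 2559 nt) had a log2 ratio of use of 2.74 in Qk5 depletion over control and 1.23 in Qk6/7 depletion over control (the authors' deposited table; DEXSeq adjusted p over the 3 conditions = 2.17e-06). The bin at chr11:4960473-4961820 (mm9), 1348 nt long, had log2 ratios of -0.23 in Qk5 depletion and 0.01 in Qk6/7 depletion (the authors' deposited table; DEXSeq adjusted p = 0.0365). The other 8 bins lay between -0.22 and 0.25 log2 in Qk5 depletion, each with an adjusted p of 1 in the authors' deposited table. A gap of 3685 nt separates the distal bin from the next one. GENCODE M21 (GRCm38) annotates a Gas2l1 transcript whose last exon is 2558 nt long and lies distal, beside 6 transcripts with last exons of 606 to 1857 nt. Coordinates were not carried between the builds, so the bin and the exon are set together by their order and length only. The gene as a whole fell, with 1278 normalized counts in Qk5 depletion, 2383 in Qk6/7 depletion and 2477 in control cells (the authors' deposited table).

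In Fmr1, 1 of 23 bins was called. It is 900 nt long (chrX:65944770-65945669, mm9, plus strand), starts at the base after a 94-nt bin that had a log2 ratio of -0.28 in Qk5 depletion, and had log2 ratios of use of 1.45 in Qk5 depletion and -0.12 in Qk6/7 depletion over control (the authors' deposited table; DEXSeq adjusted p over the 3 conditions = 0.0321). The other 22 bins ran from -0.49 to 0.83 log2 in Qk5 depletion, each with an adjusted p of 1 in the authors' deposited table. The single test over 3 conditions does not say in which depletion a bin differed.

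**Figure D4:**
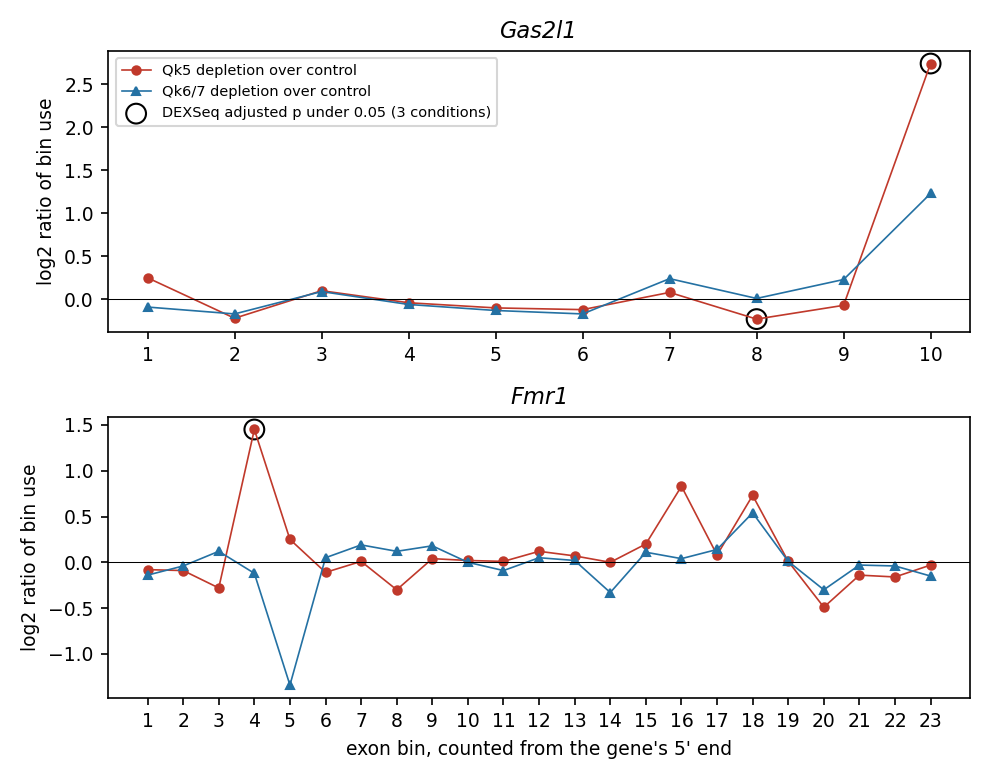
The authors' log2 ratio of exon bin use (y axis) in Qk5 depletion over control (red circles) and Qk6/7 depletion over control (blue triangles) along Gas2l1 (top, 10 bins) and Fmr1 (bottom, 23 bins), with bins counted from the 5′ end of the gene on the x axis; open circles mark bins with a DEXSeq adjusted p under 0.05. The last bin of Gas2l1 reaches 2.74 in Qk5 depletion and bin 4 of Fmr1 reaches 1.45.

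The sequence of the 3′ UTR was the other measure outside the choice. A 3′ UTR is annotated in GENCODE M21 for 116 of the 125 member symbols. The 7-letter words CTCTGAA and CCTCTGA, noticed in lowered genes of these data at an earlier look, searched on the transcript strand and counted once where they overlap, occurred in the longest 3′ UTR of 76 of these 116 genes (65.5%). They occurred in 28.8% of the 832 other table genes with a 3′ UTR and in 25.6% of all 20966 annotated protein-coding genes. Since the words come from the lowered genes themselves, the shares are a description and no test is given. As examples, sites of 8 of the members described above, chosen with their values known, are shown on GRCm38 with 11 bases on either side and the word in capitals, to show how short and otherwise unlike the shared stretch is.

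Tbcb copy 1, chr7:30224178-30224207, minus strand: ctgacacagccCCTCTGAAtgcctgtggcc
Tbcb copy 2, chr7:30224155-30224183, minus strand: gtggcccttttCCTCTGAgatttgtgcat
Ndufa4 copy 1, chr6:11900432-11900460, minus strand: aggaaatatgtCTCTGAAtgcatgaaatc
Ndufa4 copy 2, chr6:11900367-11900395, minus strand: gatgaataaatCTCTGAAacttgatgcgt
Dera copy 1, chr6:137837408-137837437, plus strand: tgtgaagattcCCTCTGAAaaaaactcaga
Dera copy 2, chr6:137837614-137837642, plus strand: ccaaaggctggCCTCTGAcattcacacat
Dera copy 3, chr6:137837644-137837672, plus strand: cgtgtcccctaCCTCTGAcacataataaa
Ada, chr2:163726913-163726941, minus strand: gccaggtctgtCCTCTGAttggatatcct
Psrc1, chr3:108387734-108387763, plus strand: tccagggctgaCCTCTGAAgtagagactat
Necap2, chr4:141066945-141066973, minus strand: gagggcctctgCCTCTGAcacacccttct
Nras, chr3:103064469-103064498, plus strand: gctggctttgtCCTCTGAAaagcagtttac
Adk, chr14:21448083-21448111, plus strand: ggacctttagtCTCTGAAatctgggaaaa

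Some short 3′ UTRs held several copies. Tbcb holds 2 copies in a 3′ UTR of 102 nt, Ndufa4 2 in 243 nt and Dera 3 in 722 nt. Over all members there were 124 copies, or 0.604 per 1000 nt, beside 0.231 in the table's other genes and 0.237 in all protein-coding genes. Among 3′ UTRs shorter than 1250 nt, the members' median, 34 of 58 members (58.6%) held a word, against 12.2% of 426 other table genes, and among longer ones 42 of 58 (72.4%), against 46.3% of 406. The 8 letters CCTCTGAA, which hold both words, occurred in 29 members (25%), against 5.53% of the table's other genes. Of the 76 genes with a word, 45 had 1 copy and 31 had 2 to 4.

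Values of members with and without a word were set side by side. The median log2 ratio in Qk5 depletion was -0.81 in the 76 genes with a word and -0.76 in the 40 without, and in Qk6/7 depletion it was -0.02 and -0.05. The median was -0.80 with 1 copy (45 genes), -0.81 with 2 (18 genes), -0.88 with 3 (9 genes) and -0.88 with 4 (4 genes). The limits that chose the members cut these ratios at -0.6 or less, so nothing is read from their differences or order. Leading members without a word in the longest 3′ UTR were Amigo2, Slc9a3r1 and Arhgap44.

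The same count was made in sets of genes chosen by mirrored limits. Of 62 genes at -0.6 log2 or less in Qk5 depletion that were at -0.4 or less in Qk6/7 depletion, 53.2% held a word. Their 3′ UTRs had a shorter median (833.5 nt) than those of the members (1250 nt). Among 3′ UTRs shorter than 1250 nt, 28.6% of 35 of these genes held a word, against 58.6% of members. Among longer ones the share was 85.2% of 27, above the 72.4% of members. Over all lengths the share was 29.3% of 157 genes lower in Qk6/7 depletion alone, 20.7% of 169 genes higher in Qk5 depletion alone and 25% of 84 genes higher in Qk6/7 depletion alone. Among 16360 words of 7 letters ranked by the difference in share between members and the other table genes, CCTCTGA came at rank 1 (49.1% against 18.1%) and CTCTGAA at rank 2 (49.1% against 19.2%). The next 3 words overlap these by 5 letters or more. The word CAGGCTG came at rank 6 (38.8% against 21.9%). At rank 7 stood GCTGACC, found in 24.1% of members, 7.57% of the table's other genes and 8.61% of all protein-coding genes. GCTGACC was present in 8 of the 40 members without the earlier words and in 20 of the 76 with one. CCTCTGA and CTCTGAA had been noticed in lowered genes of these data, and CAGGCTG and GCTGACC were taken from this ranking. The ranks and shares of these words are therefore a description.

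No source used here gives the siRNA sequences, so whether any of these words pairs with an siRNA was not tested. The 3 annotated Qk 3′ UTRs, of 5252, 7014 and 3980 nt, hold 1, 5 and 1 copies of the earlier words. All protein-coding genes held 0.237 copies per 1000 nt. Among 1679 mature mouse miRNAs in RefSeq (GRCm38), none has a seed (bases 2 to 8) that pairs with either word over all 7 letters. Pairing over fewer letters is not covered by that search. In Gas2l1 the words differed between its ends. The transcript with the distal last exon holds none of the earlier words in its 3′ UTR of 1287 nt. The proximal 3′ UTRs of 419 and 410 nt hold 2 copies each. GCTGACC occurs in 2 copies in the distal 3′ UTR and is absent from the proximal ones. The Quaking word, ACTAAC or ACTAAT, is absent from the distal 3′ UTR and occurs in 1 copy in each proximal one. The part of any of these words in the change of bin use was not tested. Both proximal copies of the earlier words are shown on GRCm38 with the word in capitals.

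Gas2l1 proximal copy 1, chr11:5060511-5060539, minus strand: agtaagcagaaCCTCTGAcagtaaagtct
Gas2l1 proximal copy 2, chr11:5060408-5060436, minus strand: agacctcaatgCTCTGAAcctgcatatac

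The recognition word of Quaking itself, ACTAAC or ACTAAT in DNA letters, was about as frequent in members as elsewhere. It occurred in the longest 3′ UTR of 41 of 116 members (35.3%), in 35.0% of the table's other genes and in 32.1% of all protein-coding genes, at 0.351, 0.350 and 0.360 copies per 1000 nt. Nras held 3 copies. The share was 44.6% of genes lower in Qk6/7 depletion alone, whose 3′ UTRs had a longer median (1644 nt) than those of the members (1250 nt). Only the annotated 3′ UTR was searched, so nothing is said here of introns, where Quaking acts on splicing.

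**Figure D5:**
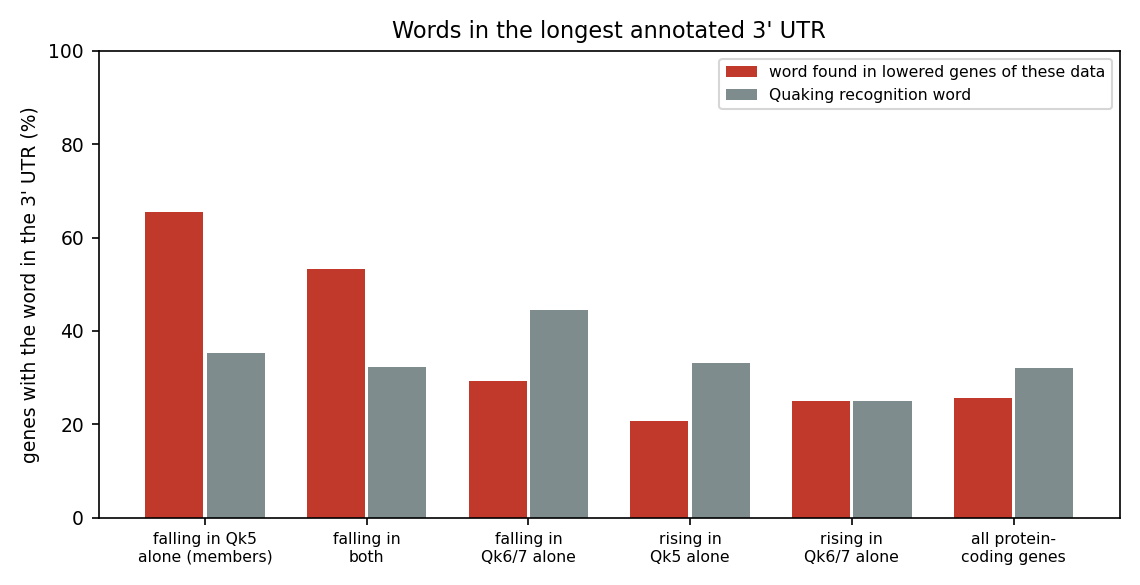
The percentage of genes (y axis) whose longest annotated 3′ UTR holds either word found in lowered genes of these data (red) or the Quaking recognition word (grey), for the members, for gene sets of the table chosen by mirrored limits and for all annotated protein-coding genes. The red bar stands at 65.5% for members and 25.6% for all protein-coding genes, and the grey bars at 35.3% and 32.1%.

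Members lay on 20 chromosomes and were mostly apart. In 3 cases members carried consecutive cluster numbers. Among clusters of the splicing table, such numbers followed position on the genome in 207 of 208 checks. H60b and Raet1d, with no gene between them in RefSeq, stood at -1.62 and -0.70 log2 in Qk5 depletion. Ptprf and Hyi stood at -0.85 and -1.15, and Mgat5 and the unnamed transcript cluster AK015544 at -0.82 and -0.72. The strand setting of the authors' counting was not stated in the sources used, so reads of overlapping or adjacent genes may not be separated.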

How the data were processed

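RNA of C2C12 myoblasts depleted of ribosomal RNA was sequenced; 14 samples are labelled, in which replicate 1 of each group has 2 runs. The submitters' processing notes list DESeq, TopHat2, Bowtie2, bedtools and SAMtools and the build mm9; how reads were counted, the strand setting and how runs were joined were not stated. Per the file headers, the authors' expression values are a mean signal (read counts divided by size factors), a fold (ratio), its log2, a p-value, an adjusted p-value and a direction score; the deposited splicing table gives log2 ratios of bin use, a dispersion score and DEXSeq p-values. No value per replicate is held, so depth is unknown and no model was refitted. The 2 control mean columns were identical. The number of genes tested was recovered from the deposited adjusted p-values, which it matched within 1% for all 668 and 449 values under 0.1. A row with broken fields was rejoined.

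Python 3.11.15 with pandas 2.3.3 selected the members and searched the 3′ UTRs of GENCODE M21 (GRCm38), by symbol or a unique RefSeq synonym; the word count was tested on simulated sequences. Members, role groups, gene lists, words and named genes (the 15 largest falls with a control mean of at least 100, the 5 highest means, list members, genes with bins, genes next to a limit; other members by role) were chosen with earlier results of these data known. Sequences of genes on chromosome 18 are not printed. Some results are not reported here.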

Additional observations from a re-analysis of the deposited data

How the results depend on the processing

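Of 20 alternative settings, 13 left a count within 1.5 times of its value or a share within its 95% Wilson interval. A limit of -0.8 or -1.0 on the fall left 62 or 26 members in place of 126, and limits on the control mean (10 to 100) or on Qk6/7 depletion (0.2 to 0.6) left 84 to 150. At an adjusted p under 0.01, 46 of 126 members were called lower in Qk5 depletion in place of 85, and 1 gene, Gas2l1, kept a called exon bin in place of 2. The share of members with CTCTGAA or CCTCTGA was 65.5% in the longest 3′ UTR (28.8% of other table genes), 69.0% over all transcripts (29.8%), 47.4% in the shortest 3′ UTR (17.4%) and 79.3% for the 6 letters CTCTGA (44.0%). The Quaking word was found in 35.3% of members, and in 12.1% for TACTAAC or TACTAAT (35.0% and 13.8% of other table genes). No paired analysis was possible because the tables hold no value per replicate, and for the same reason no replicate could be left out. Wilson intervals cover counting error only.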
